A study of Rattus norvegicus with 6 samples.

Results

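The genes described here are the Toll-like receptors, the NOD-like receptors and inflammasome parts, and the NF-kappaB machinery, in lungs of Ahr-KO and wild-type (WT) rats. They were chosen by symbol: the Tlr and Nlrp families, Nlrx1, and a fixed set of names for the other NOD-like receptors, adaptors, kinases, caspases and NF-kappaB proteins, each reaching a normalised value of 1 in 3 or more libraries. Of 51 matching symbols, 42 met that level, among 15386 entries that met it in a table of 19828. The other 9 were Nlrp1b, at or below 1.65 in every library, and Nlrp4, Nlrp4a, Nlrp4b, Nlrp4f, Nlrp5, Nlrp6, Nlrp9 and Nlrp14, all listed at 0 in the 6 libraries. Irak1 and Ticam1 stood only in joint entries with Mir5132 and Plin3 and so are no members. Neither joint entry passed the genotype test (limma-trend, adjusted p = 0.829 and 0.969). The samples were total lung from Sprague-Dawley rats, in 2 genotypes labelled Ahr-KO and wild type, with 3 libraries each. All had received Sugen-Hypoxia (SuHx), a VEGF receptor inhibitor given together with low oxygen as a rat model of pulmonary arterial hypertension, and all were labelled day 56, so no untreated group was compared. Whether the libraries of a group came from separate animals is not stated, so the p-values measure only the spread between these samples. The labels give neither the rats' age and sex nor which part of Ahr was altered.

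Toll-like receptors (TLR) are membrane proteins that bind microbial lipids, proteins or nucleic acids, on the cell surface or in endosomes. Nearly all of them signal through MyD88 and the IRAK kinases. NOD-like receptors (NLR) sense microbial products or cell damage in the cytosol, and some of them assemble an inflammasome with the adaptor ASC and caspase-1, which matures IL-1beta and IL-18 and cleaves gasdermin D into a membrane pore. Both routes meet NF-kappaB, a family of transcription factors held in the cytosol by the IkappaB proteins until the IKK kinases mark these for destruction. In lung, macrophages, monocytes, dendritic cells, B cells, endothelium and epithelium each carry different sets of these genes. AHR, the product of Ahr, is a ligand-activated transcription factor that has been described as a partner of RelB.

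Each value is a read number scaled per library, and the libraries are numbered 0, 1 and 2 in each group as in the table. Summed over genes, the values came to 18884373 to 19341848 in Ahr-KO and 17805827 to 18009426 in WT. The estimated depth was 14178681 to 23639645 reads in Ahr-KO and 12874359 to 21858095 reads in WT, with library 2 the shallowest of each group. A single read was worth 0.806 to 1.36 in Ahr-KO and 0.821 to 1.40 in WT, so a member at a value of 10 rests on few reads. Ahr itself was read at 2399, 3923 and 3575 in the Ahr-KO libraries and at 2940.0, 2860.4 and 3395 in the WT libraries, which overlap, and since the altered part of Ahr is not given, these reads do not check the labels. The AHR target Cyp1a1 stood at 10.5, 0.826 and 1.36 in the Ahr-KO libraries, against 27085, 23512 and 37694 in the WT libraries, with no overlap. Lung epithelial markers were high throughout, with Sftpc at 320193, 299807 and 345211 in Ahr-KO and 230761, 256108 and 285880.0 in WT, and Pecam1 and Ager were read in every library. Marco, a receptor of alveolar macrophages, was listed at 0 in all 6 libraries.

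In the Ahr-KO lungs, 5 of 13 Toll-like receptor genes (38.5%) and 3 of 6 inflammasome sensor genes (50%) were lower, with Nlrc3 and Nfkbie. Of all tested genes, 6.26% were called lower. None of the caspase, ASC, MyD88, IRAK or NF-kappaB subunit genes passed the test. The lists that hold them have only 4 or 5 genes each, and 10.8% of all genes were called, so 0 calls do not set them apart. Of the 42 members, 10 fell and 0 rose (limma-trend on log2(value + 1), Benjamini-Hochberg adjusted p under 0.05). The 10 were Nlrc3, Nlrc4, Nlrp3, Tlr1, Tlr12, Tlr10, Nfkbie, Nlrp1a, Tlr2 and Tlr9. That is 23.8% of the members, beside 10.8% of all tested genes that were called in either direction, 6.26% called lower and 4.5% called higher. The members and the gene lists below were chosen with earlier results of these data known, so such shares are a description. Over all genes 692 were higher and 963 lower, and 449 higher and 1314 lower once all library totals were made equal. At an unadjusted p under 0.05, 17 members were lower and 0 higher, beside 2245 lower and 2055 higher of all 15386 tested genes. Limma-voom on estimated reads, run as another test, called 9 members lower and 0 higher. Folds and log2 differences, Ahr-KO over WT, are on the log2(value + 1) scale, which understates the change of low genes. The median log2 difference was -0.34 over the 42 members and 0.01 over all tested genes. All 3 Ahr-KO values lay below all 3 WT values for 17 members (40.5%), beside 17.4% of all genes, and above them for 2 members (4.76%), Ikbkb and Nlrx1, beside 17.0%. Many of these calls depended on single libraries. The number of members called lower was 8, 2 and 1 without Ahr-KO library 0, 1 and 2, and 2, 7 and 8 without WT library 0, 1 and 2. Nlrc3 was the single member called in all 6 of those fits.

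**Figure D1:**
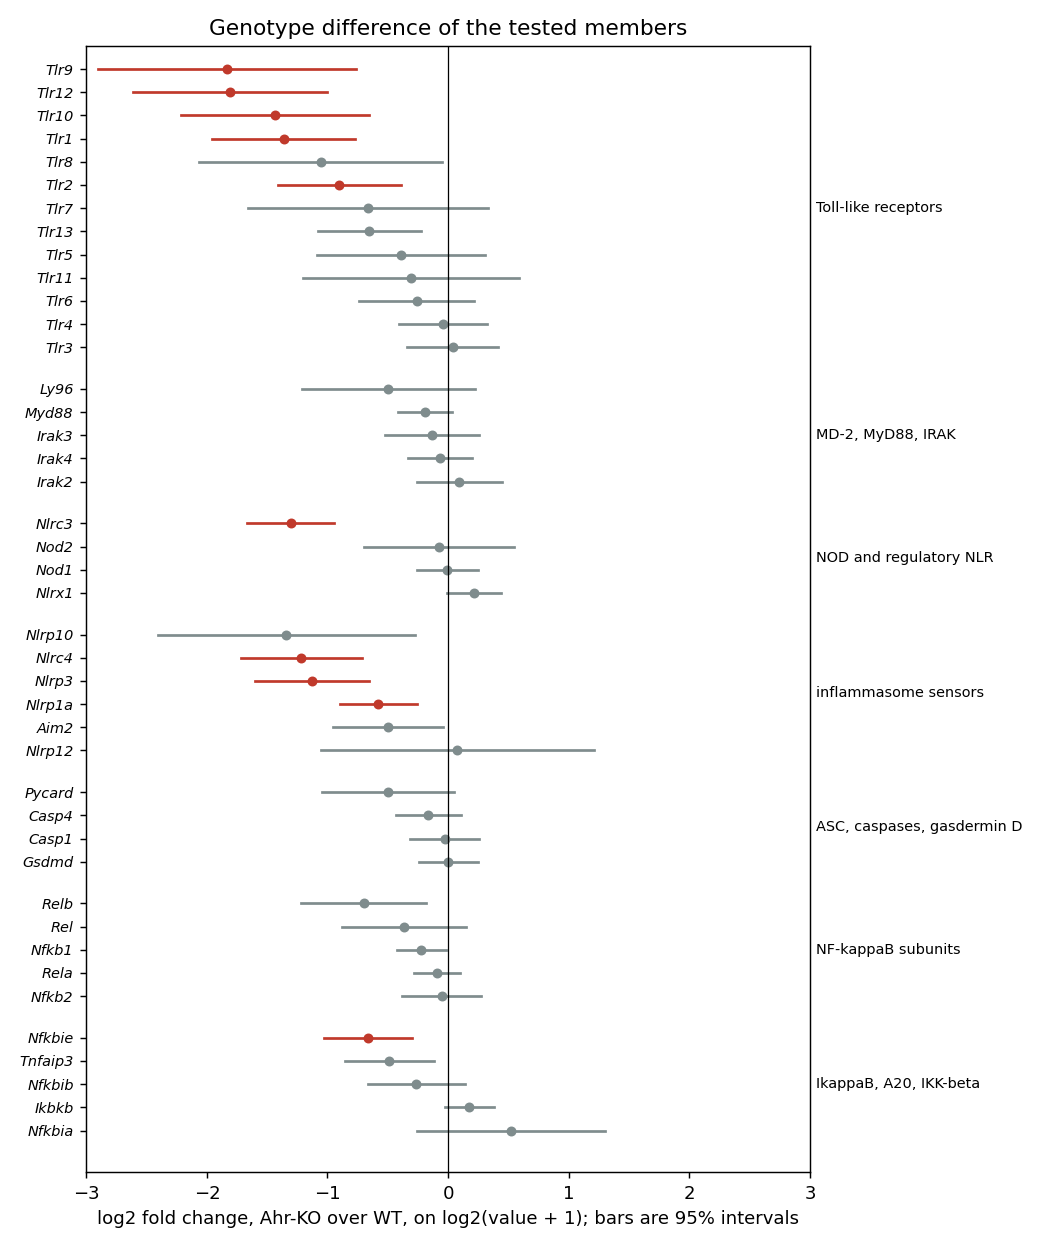
Log2 fold change of each member, Ahr-KO over WT, on the log2(value + 1) scale, grouped by role, with 95% intervals from limma-trend and n = 3 libraries per group. Red marks the 10 members past an adjusted p of 0.05, all left of 0, and grey the other 32, which include all ASC, caspase and IRAK genes measured.

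Among the receptors for bacterial lipopeptides, Tlr1 and Tlr2 were lower and Tlr6 did not pass. Tlr1, which pairs with TLR2 to bind triacylated lipopeptides, stood at 29.8, 28.9 and 21.8 in the Ahr-KO libraries and at 76.0, 55.8 and 81.1 in the WT libraries. The groups were fully apart, with a 2.57-fold lower level in Ahr-KO (log2 -1.36 ± 0.26, SE, adjusted p = 0.0178). Tlr2 itself was 135, 103 and 124 in Ahr-KO and 238, 169 and 284 in WT, again without overlap and 1.87-fold lower (log2 -0.90 ± 0.22, adjusted p = 0.041). For Tlr6, the partner of TLR2 for diacylated lipopeptides, Ahr-KO libraries read 110.4, 81.0 and 94.1 and WT libraries 116, 95.3 and 131. These overlap, with a log2 difference of -0.26 ± 0.21 and a 95% interval of -0.74 to 0.22 (adjusted p = 0.459). Tlr10, a receptor of the same subfamily, was low throughout, at 6.45, 12.4 and 9.55 in Ahr-KO and 31.0, 23.8 and 25.2 in WT. It was 2.70-fold lower without overlap (log2 -1.43 ± 0.34, adjusted p = 0.0353). The Tlr10 call was lost without any 1 of the 6 libraries (adjusted p up to 0.109), the Tlr2 call without any but WT library 1 (up to 0.127), and the Tlr1 call without Ahr-KO library 1, Ahr-KO library 2 or WT library 0 (up to 0.071).

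Tlr6, Tlr1 and Tlr10 lie next to each other in the RefSeq rat annotation (GRCr8), with no protein-coding gene between them, and they are close relatives, so reads could have been split between them. Within a library, the value of Tlr1 divided by that of Tlr6 was 0.27, 0.357 and 0.232 in Ahr-KO and 0.655, 0.586 and 0.617 in WT. Tlr10 over Tlr6 was 0.0584, 0.153 and 0.101 in Ahr-KO and 0.267, 0.25 and 0.191 in WT. Such ratios do not depend on library scaling, but their genes were picked after the values were seen, so they are given as a description without a test. Of 8 ratios computed, 6 did not overlap between groups.

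Receptors for nucleic acids were uneven. Tlr9, the endosomal receptor for unmethylated CpG DNA, was at 20.1, 9.92 and 5.46 in Ahr-KO and 42.0, 29.6 and 50.4 in WT. Every Ahr-KO library was below every WT library, and the level was 3.56-fold lower (log2 -1.83 ± 0.46, adjusted p = 0.0441). Its values in Ahr-KO libraries rest on few reads, and its call was lost without any library but Ahr-KO library 0 (adjusted p up to 0.126). The single-stranded RNA receptors Tlr7 and Tlr8, neighbours on the annotation, split their groups. Tlr7 read 346, 114 and 159.6 in Ahr-KO and 242, 223 and 471 in WT, and Tlr8 360.3, 122 and 136 in Ahr-KO and 265, 356 and 578 in WT. Ahr-KO library 0 lay above WT libraries 0 and 1 for both genes, and WT library 2 was the highest of all. Neither passed (adjusted p = 0.359 and 0.161), with 95% intervals of -1.66 to 0.33 and -2.06 to -0.05. Tlr8 was called lower in the fit without Ahr-KO library 0 (log2 -1.55, adjusted p = 0.0295). Tlr13, which binds bacterial ribosomal RNA in mouse, had 1355, 913 and 1041 in Ahr-KO and 1498, 1555 and 2157 in WT. Its groups do not overlap, but it missed the threshold (log2 -0.65 ± 0.18, adjusted p = 0.0609) and passed it without Ahr-KO library 0 (0.0348) and with library totals made equal (0.0377). Tlr3, the receptor for double-stranded RNA, did not pass, at 529, 386 and 401 in Ahr-KO and 411, 374 and 492 in WT (log2 0.04 ± 0.16, interval -0.34 to 0.42).

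The protein receptors also differed among themselves. Tlr12, which with TLR11 binds a protozoan profilin in mouse, stood at 13.7, 13.2 and 6.82 in Ahr-KO and 42.0, 32.8 and 47.6 in WT. The groups were apart by more than their spread, with a 3.51-fold lower level (log2 -1.81 ± 0.35, adjusted p = 0.0189). This call was lost without Ahr-KO library 1, Ahr-KO library 2 or WT library 0 (adjusted p up to 0.0615). Tlr11 overlapped, at 30.6, 13.2 and 23.2 in Ahr-KO and 22.0, 22.2 and 37.8 in WT (adjusted p = 0.652). The flagellin receptor gene Tlr5 read 185, 112 and 191 in Ahr-KO and 169.9, 169 and 312 in WT, with WT library 2 apart from the rest (adjusted p = 0.449). Tlr4, the endotoxin receptor, was close in both groups, at 793, 527 and 623 in Ahr-KO and 633, 623 and 726 in WT. Its log2 difference was -0.04 ± 0.16 with an interval of -0.41 to 0.32 (adjusted p = 0.886). In all, 5 of the 13 TLR genes passed the test, all lower (38.5%, beside 6.26% of all genes called lower). After quantile normalisation only 2 of the 13, Tlr1 and Tlr12, were called lower. The number was 4 by limma-voom and 6 with equal library totals. A log2 difference below 0 was found for 12 of the 13, beside 7537 of all 15386 tested genes. With equal library totals it was 13 of 13, Tlr3 included, and after quantile normalisation 11 of 13, with Tlr11 above 0.

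**Figure D2:**
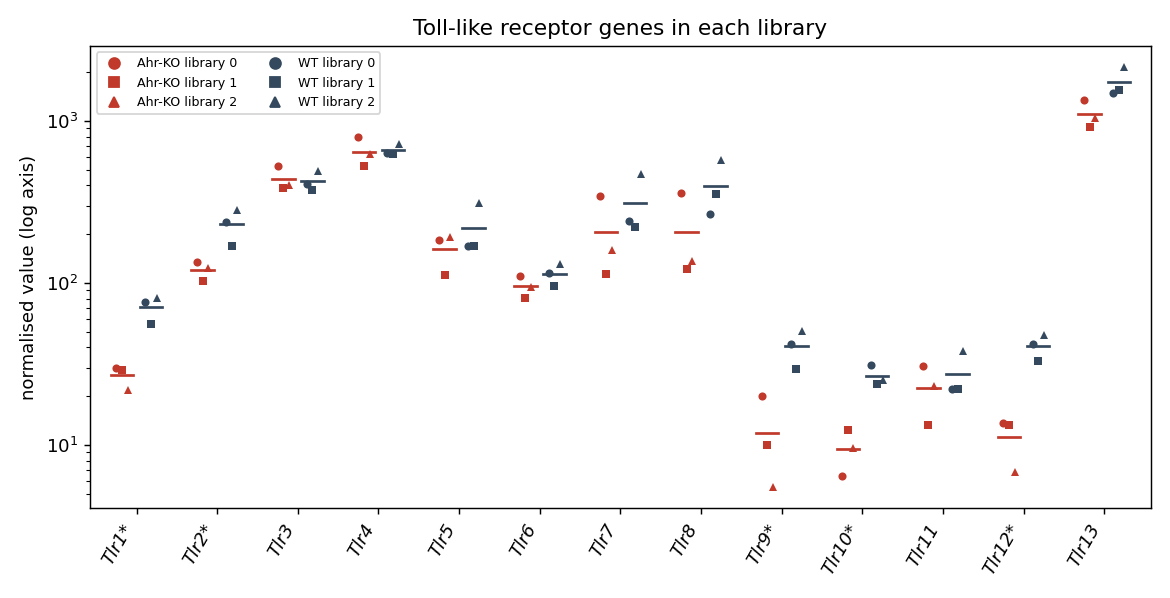
Normalised value of each Toll-like receptor gene in each library on a log axis, Ahr-KO (red) left of WT (dark), with the group mean as a bar and * on the 5 genes past an adjusted p of 0.05. Tlr1, Tlr2, Tlr9, Tlr10, Tlr12 and Tlr13 have no overlap between groups, and Ahr-KO library 0 and WT library 2 (circle and triangle) are the highest of their groups for 11 and 12 of the 13 genes.

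Within each group, the same library was the highest for most TLR genes. Ahr-KO library 0 was the highest of its group for 11 of 13 TLR genes, and WT library 2 for 12 of 13. The same libraries were the highest of their groups for 13 and 10 of the 15 tested macrophage markers, a list that includes Csf1r, Cd68 and Mrc1. This was not particular to macrophage markers. For 10 genes of cytosolic RNA sensing it was 7 and 9. Ahr-KO library 0 also led for 9 of 11 neutrophil and 9 of 12 B cell markers, but WT library 2 for only 2 and 2. For 10 lung epithelial markers the numbers were 0 and 2. Cd68 was 1265, 567 and 832 in Ahr-KO and 1379, 1607 and 1567 in WT, without overlap, while Csf1r was 5505, 5590.0 and 6089.6 in Ahr-KO and 5022, 4908 and 5036 in WT, above WT in every library, and neither passed (adjusted p = 0.0731 and 0.159). Over the macrophage list, the summed value was 321170 to 414250 in Ahr-KO and 415670 to 525450 in WT, of which Lyz2 alone made up 95.6% and overlapped between groups (adjusted p = 0.537). Without Lyz2 the other 14 summed to 11912 to 20136 in Ahr-KO and 20387 to 23936 in WT. Of the 15 markers, 5 fell (33.3%, beside 6.26% of all genes) and none rose. At an unadjusted p under 0.05 there were 9, 8 of them lower, and limma-voom called 5 lower. The 5 that fell were C1qa, C1qb, C1qc, Fcgr1a and Itgax. They were 3.76-, 3.64-, 3.15-, 2.34- and 2.13-fold lower (limma-trend, adjusted p from 0.0031 to 0.0339). The part of macrophage number in the TLR values was not tested. In bulk tissue, fewer cells of a type and less RNA per cell cannot be told apart.

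The genes of the shared co-receptor, adaptor and kinases did not pass. Ly96 encodes MD-2, the co-receptor that lets TLR4 bind endotoxin, and read 61.3, 35.5 and 30.0 in Ahr-KO and 49.98, 69.0 and 54.6 in WT. The groups overlap through Ahr-KO library 0 (adjusted p = 0.343). Myd88, the adaptor shared by nearly all TLRs, was 1032, 929 and 1014 in Ahr-KO and 1152, 1039 and 1213 in WT. Its groups do not overlap, yet the difference is small and missed the threshold (log2 -0.19 ± 0.10, adjusted p = 0.245). The kinase genes Irak2 and Irak4 and the inhibitory Irak3 overlapped between groups, with adjusted p from 0.653 to 0.745. Irak2 was 1318, 897 and 1060.0 in Ahr-KO and 1039, 1109 and 899 in WT, Irak3 274, 262 and 345 in Ahr-KO and 363, 268 and 337 in WT, and Irak4 342, 323 and 319 in Ahr-KO and 369.9, 332 and 332 in WT. None of these 5 genes was called, 0 of 5 had an unadjusted p under 0.05, and limma-voom called 0. With 10.8% of all genes called, 0 of 5 does not set these genes apart from the rest.

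In a list of 13 tested TLR accessory genes outside the members, 4 fell (30.8%, beside 6.26% of all genes) and 1 rose, with a median log2 of -0.25. Cd180, a TLR-like receptor of B cells and myeloid cells, was 80.6, 47.1 and 84.6 in Ahr-KO and 244, 160.1 and 214 in WT (2.93-fold lower, adjusted p = 0.015). Its partner Ly86 was 2.15-fold lower (adjusted p = 0.0237). Unc93b1, which carries the nucleic acid receptors to endosomes, had 1031, 855 and 870.3 in Ahr-KO and 1468, 1386 and 1289.8 in WT, 1.51-fold lower without overlap (adjusted p = 0.0156). Slc15a3, an endolysosomal peptide and histidine transporter, fell with it (1.55-fold, adjusted p = 0.0157). Lbp, the lipopolysaccharide-binding protein, rose, with 1124, 1148 and 1150.0 in Ahr-KO and 787, 803 and 873 in WT (log2 0.48 ± 0.09, adjusted p = 0.0164). In a further list of 24 TLR signalling genes, 2 fell (8.33%, near the 6.26% of all genes) and none rose (10 at an unadjusted p under 0.05, 4 of them higher, and 3 lower by limma-voom), with a median log2 of -0.01. Irf5, a transcription factor of TLR-driven cytokine genes, was 191, 136 and 205 in Ahr-KO and 469, 375 and 446 in WT (2.44-fold lower, adjusted p = 0.00849). Its call held in every fit that left out 1 library (adjusted p up to 0.0334). Pik3ap1, the adaptor BCAP, was 2.26-fold lower (adjusted p = 0.0363). Of the 6 fits that left out 1 library, Lbp was called higher in those that dropped Ahr-KO library 0 or WT library 2. Without Ahr-KO library 1, Ahr-KO library 2 or WT library 0, 1 accessory gene and 1 signalling gene were called lower in each fit. Without WT library 1, 3 accessory genes and 1 signalling gene were called lower, and without WT library 2, 5 and 1. Without the shallowest library of each group it was 1 and 1.

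Among the NLR genes outside the inflammasome sensors, Nlrc3 was lower and the other 3 did not pass. Nlrc3, which restrains T cell and TLR signalling in mouse, had the lowest adjusted p of all members, with 86.2, 80.2 and 87.3 in Ahr-KO and 223, 193 and 217 in WT. The libraries of each group lay close together and the groups far apart, 2.47-fold lower in Ahr-KO (log2 -1.31 ± 0.16, adjusted p = 0.00523). Its call held under all 16 other settings tried. Nod1, which senses a peptidoglycan fragment, was 1813, 1635 and 1742 in Ahr-KO and 1797, 1923 and 1512 in WT. Nod2, which senses another, was 114, 121 and 196 in Ahr-KO and 124, 131 and 196 in WT, with library 2 the highest of both groups. Both overlapped between groups (adjusted p = 0.98 and 0.884). Nlrx1, a mitochondrial NLR, stood at 599.6, 579 and 633 in Ahr-KO and 536, 512 and 508 in WT, all Ahr-KO values above all WT values, but did not pass (log2 0.22 ± 0.10, adjusted p = 0.189).

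Of 6 inflammasome sensor genes, 3 were called lower (50%, beside 6.26% of all genes) and 5 had Ahr-KO values entirely below WT (83.3%, beside 17.4%). Nlrp3, which forms an inflammasome on potassium loss and other damage signals, was 185, 108 and 135 in Ahr-KO and 318, 289 and 311 in WT. That is 2.19-fold lower without overlap (log2 -1.13 ± 0.20, adjusted p = 0.0156), and the call was lost without Ahr-KO library 2 or WT library 0 (adjusted p up to 0.07). Nlrc4, which is triggered by NAIP proteins bound to flagellin or secretion-system proteins, read 107, 71.1 and 80.5 in Ahr-KO and 178, 183 and 241 in WT. It was 2.32-fold lower (log2 -1.22 ± 0.22, adjusted p = 0.0151). Ahr-KO library 0 was the nearest to WT, and the call was lost without Ahr-KO library 1 or 2 (adjusted p up to 0.0686). Nlrp1a, whose rat protein is activated by anthrax lethal factor, had 729, 661 and 621 in Ahr-KO and 984, 848 and 1192 in WT. Its groups were apart, with a smaller 1.49-fold lower level (log2 -0.58 ± 0.14, adjusted p = 0.0386), and the call was lost without WT library 0 or any Ahr-KO library (adjusted p up to 0.137). Its relative Nlrp1b was near 0 in every library, and reads of the pair could have been shared.

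The other sensors missed the threshold. Aim2, the receptor for cytosolic DNA, was 71.7, 81.0 and 85.9 in Ahr-KO and 134, 98.5 and 108 in WT, without overlap (log2 -0.50 ± 0.20, adjusted p = 0.144). Nlrp10, an NLR without leucine-rich repeats, was low, at 16.9, 4.96 and 16.4 in Ahr-KO and 31.0, 26.3 and 33.6 in WT, without overlap (adjusted p = 0.104). Nlrp12 overlapped fully, at 31.4, 16.5 and 15.0 in Ahr-KO and 27.0, 9.03 and 26.6 in WT, and its interval of -1.06 to 1.21 is the widest of the group.

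Downstream of the sensors, none of 4 members passed (limma-trend, and limma-voom too) and 0 had an unadjusted p under 0.05. With 10.8% of all genes called, 0 of 4 does not set these genes apart from the rest. Pycard, which encodes ASC, had 352, 232 and 207 in Ahr-KO and 433, 285 and 390.3 in WT, with Ahr-KO library 0 inside the WT values (log2 -0.50 ± 0.24, adjusted p = 0.212). Casp1 was 985, 997 and 795 in Ahr-KO and 938, 857 and 1032 in WT. Casp4, which in rat is the counterpart of the endotoxin-binding mouse caspase-11, was 349, 341 and 315 in Ahr-KO and 385, 395 and 348 in WT. Gsdmd, the pore-forming gasdermin, was 588, 603 and 692 in Ahr-KO and 661, 613 and 603 in WT. All 3 overlapped between groups, and their log2 intervals were -0.31 to 0.26, -0.43 to 0.10 and -0.24 to 0.25. The value of Nlrp3 divided by that of Casp1 in the same library was 0.187, 0.109 and 0.17 in Ahr-KO and 0.339, 0.337 and 0.301 in WT. For Nlrc4 over Casp1 it was 0.109, 0.0713 and 0.101 in Ahr-KO and 0.19, 0.214 and 0.233 in WT. Neither overlaps between groups, and both are a description of genes picked after the values were seen.

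Other inflammasome genes, in a list of 20 tested outside the members, showed 6 lower (30.0%, beside 6.26% of all genes) and none higher (9 at an unadjusted p under 0.05, 1 of them higher, and 6 lower by limma-voom), with a median log2 of -0.38. Naip6, a NAIP family receptor for NLRC4, was 94.3, 72.7 and 99.6 in Ahr-KO and 186, 175 and 305 in WT, 2.42-fold lower (adjusted p = 0.02). NAIP genes are close relatives, and their reads could be shared. Naip5 was 58.8, 28.1 and 39.6 in Ahr-KO and 77.0, 168 and 429 in WT. It was 4.31-fold lower without overlap but missed the threshold (limma-trend, adjusted p = 0.0555). The cytokine gene Il18 had 372, 208 and 262 in Ahr-KO and 513, 439 and 485 in WT (1.75-fold lower, adjusted p = 0.0458). Il18bp, a decoy that binds IL-18, was 1.49-fold lower (adjusted p = 0.0339), and Il1rn, the IL-1 receptor antagonist, 1.94-fold lower (adjusted p = 0.0482). Mefv, the pyrin sensor, was 1.67-fold lower (adjusted p = 0.0453) and Ninj1, which ruptures the membrane of dying cells, 1.49-fold lower (adjusted p = 0.0272). Il1b, outside the rule for named genes, overlapped between groups at 265, 208 and 180.1 in Ahr-KO and 345, 208 and 292 in WT (adjusted p = 0.347). The number called lower was 4, 0 and 1 without Ahr-KO library 0, 1 and 2, 2, 1 and 3 without WT library 0, 1 and 2, 2 after quantile normalisation, and 1 without the shallowest library of each group. Among 10 genes of cytosolic RNA sensing, such as Ddx58 and Ifih1, 0 were called, beside 10.8% of all genes (3 at an unadjusted p under 0.05, and 0 by limma-voom).

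**Figure D3:**
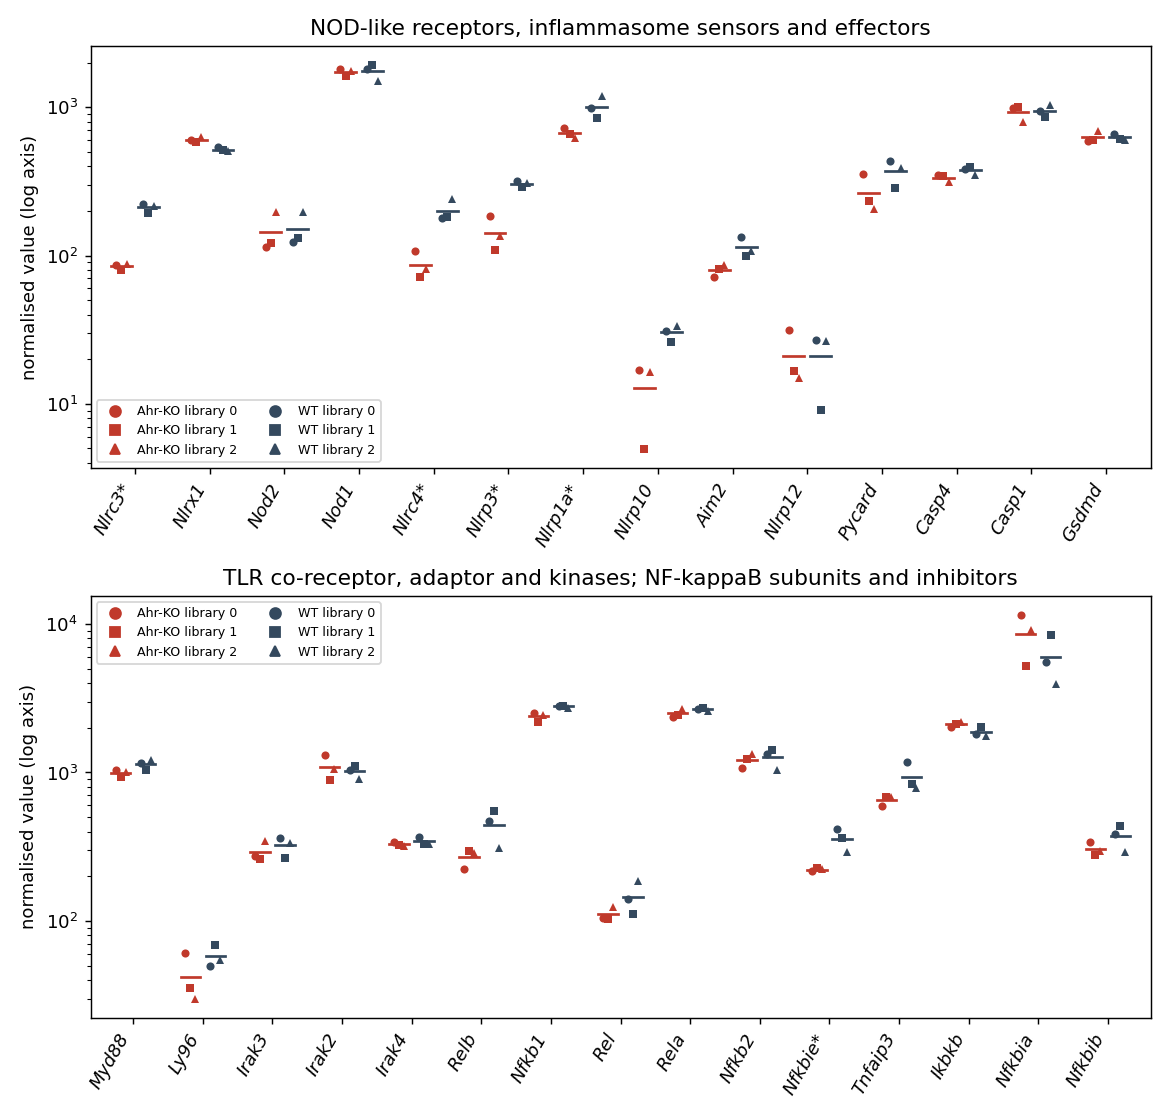
Normalised value per library on a log axis for NOD-like receptor and inflammasome genes (top) and for the TLR co-receptor, MyD88, IRAK and NF-kappaB genes (bottom), Ahr-KO (red) left of WT (dark), with the group mean as a bar and * past an adjusted p of 0.05. Nlrc3, Nlrc4, Nlrp3 and Nlrp1a separate by group, while Casp1, Casp4, Gsdmd and Rela overlap.

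In the NF-kappaB family itself, the subunit genes were below WT on average but none passed. Relb, the subunit that acts with p52 in the alternative pathway, was 222, 296 and 286 in Ahr-KO and 472, 552 and 312 in WT. The groups do not overlap, with Ahr-KO library 1 and WT library 2 close to each other (log2 -0.70 ± 0.22, adjusted p = 0.0871). Relb was called lower in the fit without WT library 2 (log2 -0.94, adjusted p = 0.0173). Nfkb1, the source of p50, read 2528, 2187 and 2455 in Ahr-KO and 2810.0, 2819 and 2714 in WT, also without overlap but with a small difference (log2 -0.22 ± 0.09, adjusted p = 0.144). Rela, the p65 subunit, was 2373, 2439 and 2691 in Ahr-KO and 2664, 2723 and 2602 in WT. Rel, the lymphoid subunit c-Rel, was 106, 103 and 124 in Ahr-KO and 140.0, 111 and 187 in WT, and Nfkb2, the source of p52, 1064, 1239.7 and 1333 in Ahr-KO and 1339, 1409 and 1039 in WT. Rela, Rel and Nfkb2 overlapped between groups (adjusted p = 0.52, 0.332 and 0.845). The ratio of Relb to Rela overlapped between groups, at 0.0937, 0.121 and 0.106 in Ahr-KO and 0.177, 0.203 and 0.12 in WT. Of the 5 subunit genes, 2 had an unadjusted p under 0.05, both lower, and limma-voom called 0. With 10.8% of all genes called, 0 of 5 does not set the subunit genes apart from the rest.

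Of the inhibitor genes, Nfkbie was lower and the other 3 did not pass. Nfkbie, which encodes IkappaB-epsilon, was 216, 226 and 224 in Ahr-KO and 417, 365 and 289.6 in WT. The 3 Ahr-KO libraries lay close together and below every WT library, 1.59-fold lower (log2 -0.67 ± 0.16, adjusted p = 0.0364). The call was lost without any library but WT library 2 (adjusted p up to 0.115) and after quantile normalisation (0.0548). Tnfaip3 encodes A20, a ubiquitin-editing brake on NF-kappaB, and had 596, 686 and 688 in Ahr-KO and 1176, 838 and 790.4 in WT. It was below WT in every library but missed the threshold (log2 -0.49 ± 0.16, adjusted p = 0.0919). Nfkbia, the gene of IkappaB-alpha and a rapid NF-kappaB target, was the most variable of the group, at 11488, 5191 and 9032 in Ahr-KO and 5553, 8380.0 and 3938 in WT. Its values differed by over 2-fold within each genotype, and the log2 difference of 0.52 ± 0.34 has an interval of -0.26 to 1.30 (adjusted p = 0.363). The ratio of Nfkbie to Nfkbia also overlapped, at 0.0188, 0.0436 and 0.0248 in Ahr-KO and 0.0751, 0.0435 and 0.0735 in WT. Nfkbib, the gene of IkappaB-beta, overlapped at 343, 279 and 297 in Ahr-KO and 388, 435 and 291 in WT (adjusted p = 0.371). Ikbkb, which encodes the kinase IKK-beta, was 2033, 2113 and 2191 in Ahr-KO and 1824, 2024 and 1764 in WT, slightly above WT in every library (log2 0.18 ± 0.09, adjusted p = 0.235).

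In a list of 30 other NF-kappaB pathway genes, 3 fell (10%, beside 6.26% of all genes) and 2 rose, with a median log2 of -0.02, so the share called is near that of all genes. Card9, a scaffold for fungal receptor signalling in myeloid cells, was 1.72-fold lower, without overlap (adjusted p = 0.0276). Card10, a scaffold used by receptors of non-immune cells, was 1165, 1029.7 and 1139 in Ahr-KO and 674, 866 and 701 in WT, higher in every Ahr-KO library (log2 0.58 ± 0.12, adjusted p = 0.0243). Tifa, an adaptor for a bacterial sugar, was 1.66-fold lower (adjusted p = 0.0436), and Rnf31, the catalytic part of the linear ubiquitin ligase, was higher (log2 0.33 ± 0.08, adjusted p = 0.0457). Without Ahr-KO library 1, Ahr-KO library 2 or WT library 0, 0 of these genes were called in either direction. Without Ahr-KO library 0, 3 were lower and 0 higher, without WT library 1, 0 and 1, and without WT library 2, 3 and 1. After quantile normalisation 1 was lower and 1 higher, and without the shallowest library of each group 0 and 0.

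The promoter sequences of Nfkbia, Tnfaip3 and Nfkbie are shown because IkappaB and A20 genes are known NF-kappaB targets that feed back on the pathway. They are compared with the promoters of Tlr2 and Nlrc3, members that fell, with and without a match to the same words. Sequences are from RefSeq, build GRCr8, and cover 250 bases before to 50 after the annotated gene start. Capitals mark matches on either strand to GGNNNTTCC, a loose form of the kappaB site. The stricter word searched, GGANTTTCC, is contained in it. The promoter of Nfkbib, the other inhibitor gene, held neither word and is not shown. The windows lie at chr6:78597023-78597322 (minus strand) for Nfkbia, chr1:15543930-15544229 (minus strand) for Tnfaip3, chr9:22947823-22948122 (minus strand) for Nfkbie, chr2:171504508-171504807 (minus strand) for Tlr2 and chr10:12055559-12055858 (plus strand) for Nlrc3, and are written 5′ to 3′ on the gene's strand.
Nfkbia: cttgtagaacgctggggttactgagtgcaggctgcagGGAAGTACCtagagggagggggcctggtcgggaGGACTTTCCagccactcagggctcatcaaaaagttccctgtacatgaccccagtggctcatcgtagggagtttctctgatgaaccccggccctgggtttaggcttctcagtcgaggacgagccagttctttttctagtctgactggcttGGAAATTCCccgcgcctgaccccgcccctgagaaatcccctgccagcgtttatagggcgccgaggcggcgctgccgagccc
Tnfaip3: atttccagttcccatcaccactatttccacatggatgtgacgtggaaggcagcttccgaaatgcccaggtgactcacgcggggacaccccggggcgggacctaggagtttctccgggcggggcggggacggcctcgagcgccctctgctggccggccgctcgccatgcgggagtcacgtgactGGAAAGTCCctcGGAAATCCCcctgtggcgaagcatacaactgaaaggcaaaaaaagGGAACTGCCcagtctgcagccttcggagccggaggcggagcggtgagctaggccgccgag
Nfkbie: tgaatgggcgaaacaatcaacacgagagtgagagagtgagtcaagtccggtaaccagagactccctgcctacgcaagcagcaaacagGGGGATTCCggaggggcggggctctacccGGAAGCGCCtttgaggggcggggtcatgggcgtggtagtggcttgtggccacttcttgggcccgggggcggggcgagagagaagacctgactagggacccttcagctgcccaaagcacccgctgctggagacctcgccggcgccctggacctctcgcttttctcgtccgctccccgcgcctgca
Tlr2: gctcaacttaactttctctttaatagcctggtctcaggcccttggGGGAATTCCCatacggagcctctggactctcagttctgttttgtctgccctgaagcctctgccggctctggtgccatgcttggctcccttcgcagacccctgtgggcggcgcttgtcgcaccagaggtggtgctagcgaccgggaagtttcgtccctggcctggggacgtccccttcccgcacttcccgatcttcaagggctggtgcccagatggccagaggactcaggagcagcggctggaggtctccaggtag
Nlrc3: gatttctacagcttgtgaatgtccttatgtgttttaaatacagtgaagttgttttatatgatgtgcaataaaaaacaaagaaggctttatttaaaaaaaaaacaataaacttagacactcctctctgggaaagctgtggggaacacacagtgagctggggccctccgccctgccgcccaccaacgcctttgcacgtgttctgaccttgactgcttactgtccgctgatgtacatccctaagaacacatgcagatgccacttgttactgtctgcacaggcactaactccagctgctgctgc

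Of the 42 members, 32 had a promoter in the RefSeq table. The strict word GGANTTTCC was present in 4 of these 32 (12.5%), beside 1.47% of the promoters found for all tested genes (173 of 11736). The 4 were Nfkbia, Tnfaip3, Nfkb1 and Nfkb2, all from the NF-kappaB group and none past the expression test. Nfkbia held it at 180 and 31 bases before the start, and Tnfaip3 at 67 bases before it. The loose word was in 9 of 32 (28.1%) beside 20.8%. Of the 8 members called lower that had a promoter, 0 held the strict word and 2, Nfkbie and Tlr2, the loose one. GCGTG, the core of the AHR binding site, was in 12 of 32 (37.5%) beside 46.7%, and among the 8 called lower in that of Nfkbie alone. All words were searched on both strands, and a match says only that these letters are there.

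Of 28 tested genes that NF-kappaB is known to switch on, 12 fell (42.9%, beside 6.26% of all genes) and 2 rose, with a median log2 of -0.54. For 19 of them (67.9%, beside 17.4% of all genes) every Ahr-KO value was below every WT value. The list was chosen with earlier results of these data known, so these shares are a description. The 6 falling genes named below were taken by lowest p. A promoter was found for 18 of the 28, of which 12 (66.7%) held GGNNNTTCC and 4 (22.2%) GGANTTTCC, beside 20.8% and 1.47% of the promoters of all tested genes. Among the 12 that fell, 7 had a promoter, of which 4 held the loose word and 1 the strict one. Sele, the endothelial adhesion molecule E-selectin, was 16.9, 43.0 and 21.8 in Ahr-KO and 197, 154 and 225 in WT, 7.29-fold lower (log2 -2.87 ± 0.35, adjusted p = 0.00542). Vcam1, another adhesion molecule, was 681, 795 and 595 in Ahr-KO and 2033, 1382 and 1425 in WT (2.32-fold lower, adjusted p = 0.00828). The monocyte chemokine Ccl2 was 16.1, 28.9 and 28.6 in Ahr-KO and 211, 83.8 and 141 in WT, without overlap and 5.52-fold lower (adjusted p = 0.0107). Cd83 of activated dendritic and B cells, the apoptosis inhibitor Birc3 and the mitochondrial superoxide dismutase Sod2 were 1.96-, 2.28- and 1.46-fold lower (adjusted p = 0.00542, 0.0062 and 0.00964). These 6 calls held in every fit that left out 1 library. Without the shallowest library of each group, Cd83, Birc3 and Sod2 stayed past the threshold, and Sele, Vcam1 and Ccl2 missed it (adjusted p = 0.052, 0.0501 and 0.0658).

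Other response genes overlapped or were higher. Icam1, another classical target, overlapped between groups at 9643, 14816 and 13214 in Ahr-KO and 9408, 10327 and 10005 in WT (log2 0.32 ± 0.16, adjusted p = 0.23). The neutrophil chemokine genes Cxcl1, Cxcl2 and Cxcl3 overlapped as well (adjusted p from 0.599 to 0.906). The 2 that rose were Plau, the urokinase gene, at 1137, 1500.0 and 1394 in Ahr-KO and 762, 857 and 590.3 in WT, and the stress gene Gadd45b, at 1954, 1789 and 1883 in Ahr-KO and 902, 1381 and 725 in WT (adjusted p = 0.017 and 0.0288). Tnf was below the filter, at 0.806 in Ahr-KO library 0 and 0 in the other Ahr-KO libraries, and at 4, 4.11 and 0 in the WT libraries. Genes in this paragraph were named after their values were seen. The number of response genes called lower was 10, 6 and 6 without Ahr-KO library 0, 1 and 2, and 7, 9 and 9 without WT library 0, 1 and 2. It was 3, with 0 higher, without the shallowest library of each group. With a pseudocount of 0.1 it was 9, and without a filter or with the stricter filter 10. It was 11 after quantile normalisation and by limma-voom, and 14 with equal library totals. The 2 rises were both called without Ahr-KO library 0, WT library 1 or WT library 2, and 0 to 1 of them in the other fits that left out 1 library.

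**Figure D4:**
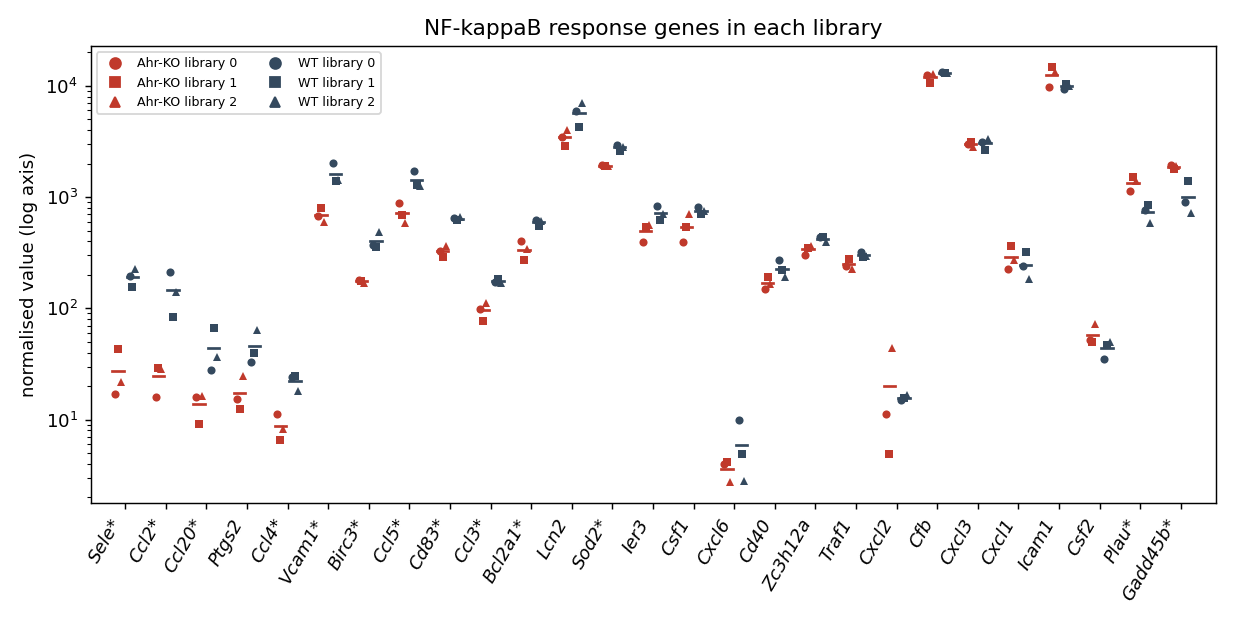
Normalised value per library on a log axis for the tested NF-kappaB response genes other than Il6, which was listed at 0 in a library, ordered by log2 difference, Ahr-KO (red) left of WT (dark), with the group mean as a bar and * past an adjusted p of 0.05. Sele, Ccl2, Vcam1 and Birc3 are lower in every Ahr-KO library, and Plau and Gadd45b higher.

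Marker genes of several immune cells moved with these results. Of 12 T cell markers 9 fell (75%), of 10 NK cell markers 8 (80%) and of 12 B cell markers 8 (66.7%), beside 6.26% of all genes. In these lists 0 rose (limma-voom: 8, 8 and 8 lower, 0 higher). All 12 T cell, all 10 NK cell and 10 of the B cell markers were lower at an unadjusted p under 0.05, and 0 higher. Without Ahr-KO library 1, Ahr-KO library 2 or WT library 0 the T cell count dropped to 3 in each fit, the NK cell count to 3, 3 and 4, and the B cell count to 4, 3 and 4. The B cell count was also 4 without WT library 1, and the macrophage count was 8 without Ahr-KO library 0. Without the shallowest library of each group, 2 T, 2 NK, 1 B and 2 macrophage markers were called lower. The summed values of the T, NK and B cell lists did not overlap. T cell markers summed to 929 to 1189.6 in Ahr-KO and 2005 to 2670.1 in WT. NK cell markers summed to 999 to 1479 in Ahr-KO and 2591 to 3238 in WT, and B cell markers to 1276 to 1667 in Ahr-KO and 2214 to 3085 in WT. Of 8 plasmacytoid dendritic markers 3 fell (37.5%), of 7 conventional dendritic markers 2 (28.6%), and 0 of either rose (1 and 0 higher by limma-voom). Without Ahr-KO library 1, Ahr-KO library 2 or WT library 0, 1 plasmacytoid and 0 conventional dendritic markers were called lower. Without WT library 1 the plasmacytoid count was also 1, and the conventional count was 1 without Ahr-KO library 0, WT library 1 or WT library 2. Of 9 monocyte markers 2 fell (22.2%) and 1, Ace, rose, but 0 were called in either direction without Ahr-KO library 1 or 2. The rise of Ace was lost without any library but WT library 2, after quantile normalisation and with library totals made equal. Ace alone made up 90.1% of the summed monocyte value, so its rise does not stand for the list. The other 8 summed to 1877.1 to 2224.4 in Ahr-KO and 2516.3 to 4120.5 in WT. The monocyte count lower was 1 without WT library 0 or 2. Neutrophil markers had 0 of 11 called, beside 10.8% of all genes (1 at an unadjusted p under 0.05, lower, and 0 by limma-voom). Their sums were 986 to 2282 in Ahr-KO and 1234 to 1877 in WT, and Mpo was at or below 3.00 in every library. Of 8 mast cell markers 3 fell (37.5%) and 1, Kit, rose, and of 9 mesenchymal markers 2 fell (22.2%) and 0 rose (1 higher at an unadjusted p under 0.05, and 0 by limma-voom). Kit alone made up 80.0% of the summed mast cell value, so its rise does not stand for the list. The other 7 summed to 315.1 to 371.5 in Ahr-KO and 487.8 to 943.7 in WT. The mast cell count lower was 0 without WT library 0 and 1 without Ahr-KO library 1, Ahr-KO library 2 or WT library 2, and the mesenchymal count was 1 without Ahr-KO library 1, Ahr-KO library 2, WT library 0 or WT library 1. Endothelial markers summed to 82979 to 90119 in Ahr-KO and 71093 to 74334 in WT, with 2 of 9 higher and 1 lower (33.3% called, beside 10.8% of all genes). Lung epithelial markers summed to 908270 to 975110 in Ahr-KO and 751190 to 751440 in WT, with 2 of 10 higher and 1 lower (30.0% called). Without 1 library, 0 to 2 endothelial and 1 to 2 epithelial markers were called higher, and 0 to 1 of each lower. The part of these cell types in the member and response gene differences was not tested.

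**Figure D5:**
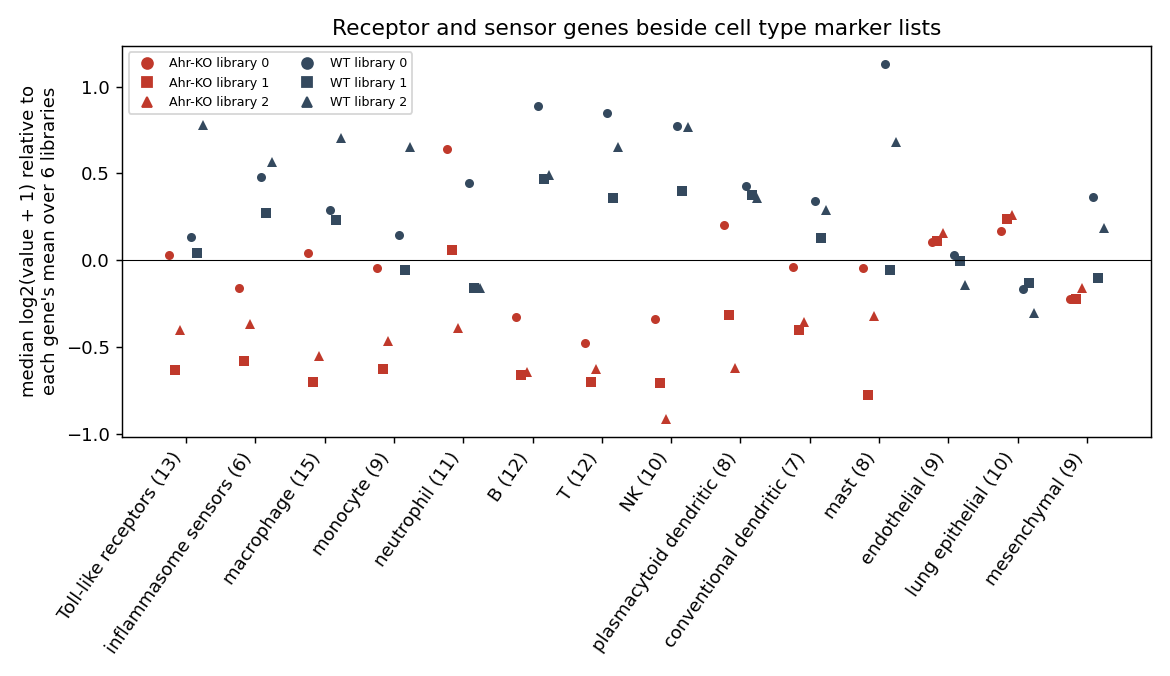
Median over the genes of a list of log2(value + 1) relative to each gene's mean over the 6 libraries, per library, Ahr-KO (red) left of WT (dark), with the number of tested genes in brackets. The T, NK and B cell lists separate by genotype with a wide gap. The inflammasome sensor list (nearest libraries -0.1627 in Ahr-KO and 0.2702 in WT), the macrophage list (0.0432 and 0.2309) and both dendritic lists also separate. The TLR groups nearly touch (0.0303 and 0.0393). The mesenchymal list separates narrowly, with Ahr-KO below (-0.1588 and -0.1038). The lung epithelial and endothelial lists separate the other way, with Ahr-KO above. In the TLR, macrophage and monocyte lists Ahr-KO library 0 (circle) stands above the other Ahr-KO libraries and WT library 2 (triangle) above the other WT libraries.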

How the data were processed

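Per the labels' protocols, rat lung RNA was isolated in Trizol on columns, DNase treated and made into standard Illumina libraries. Per the submitters' processing notes the build was rn6 and FastQC was used. The sources used here name no aligner, counter, annotation, strand setting or scaling, so reads of overlapping or antisense genes cannot be told apart. The authors' deposited table holds a signal per gene and library, a read number scaled per library. Between 97.4% and 97.9% of positive values lay within 0.05 of a whole multiple of the library's smallest recurring step, taken as 1 read, from which depth was estimated. Entries naming several genes (229) were tested as they stood. The deposited columns are numbered 0 to 2 within a genotype and were mapped to groups only.

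Entries that reached 1 in 3 or more of the 6 libraries were tested by limma-trend (limma 3.58.1, R 4.3.3) on log2(value + 1), Ahr-KO against WT, 2-sided, with Benjamini-Hochberg adjustment over all 15386 entries, a threshold of 0.05 and no fold minimum. The test was checked on simulated data, where it missed part of the smaller changes. A gene that did not pass may therefore still differ. The members and gene lists were chosen with earlier results of these data known. The rule for names took all members, and from each other pathway list at most 6 genes past the threshold by lowest p. An item that met this rule is not reported here. Cell marker lists were read as counts and sums. Il1b, Naip5, Il6, the CXC chemokine genes, Icam1, Plau, Gadd45b, Tnf, Cd68, Csf1r, Ace and Kit were named after their values were seen. So were the 5 macrophage markers that fell and the ratios within a library. No proteins or genome were used here. Other scalings, filters, pseudocounts, variance models, a replicate block, and fits leaving out libraries were tried.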

Additional observations from a re-analysis of the deposited data

How the results depend on the processing

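The 10 members called lower became 11 with equal library totals, 10 with robust limma-trend and with the stricter filter, and 9 without a filter, with a pseudocount of 0.1 and by limma-voom. They became 6 after quantile normalisation (Nfkbie, Tlr10, Tlr2 and Tlr9 lost) and 6 without the mean-variance trend. They became 4 with the replicate block (Nlrc3, Tlr2, Nlrc4 and Nlrp3 kept), and 2 without the shallowest library of each group (Nfkbie and Nlrc3 kept). Leaving out 1 library gave 1 to 8, and no setting called a member higher. Over all genes, the 692 higher became 449 with equal library totals, 301 without the trend, 334 with the replicate block, 268 without the shallowest libraries, and 135 to 930 without 1 library. The 963 lower became 565, 285 and 272 to 920 with the replicate block, without the shallowest libraries and without 1 library, in that order. Libraries of the same number did not deviate together across genotypes (r = -0.1, 0.0687 and -0.0738), so the number is not taken to pair them. Of the members' values, 384 under the settings other than leaving out 1 library had the same direction and call, 25 lost the call, 1 gained it and 10 changed sign. Leaving out 1 library gave 193, 35, 3 and 21. All sign changes were of uncalled genes: Nod2 0.0592, Tlr11 0.0042 and Gsdmd -0.0072 after quantile normalisation, Tlr3 -0.054, Gsdmd -0.0883 and Nlrp12 -0.0089 with equal totals, Gsdmd -0.0103 by limma-voom, and Tlr4 0.0431, Casp1 0.14 and Gsdmd -0.0947 without the shallowest libraries (log2). Without 1 library, log2 differences ran from -0.19 to 0.0384 for Nfkb2, -0.32 to 0.13 for Nod2, -0.11 to 0.0682 for Nod1, -0.56 to 0.0116 for Tlr11, -0.20 to 0.0938 for Tlr4, -0.10 to 0.15 for Tlr3, -0.0535 to 0.22 for Irak2, -0.0955 to 0.0766 for Casp1, -0.0688 to 0.0476 for Gsdmd and -0.41 to 0.33 for Nlrp12. The causes of these moves were not tested, and fits with fewer libraries have less power by construction. A count test with edgeR was not run, since the deposited values are not counts. Members with low values, such as Tlr9 and Tlr10, rest on few reads.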
